A study of Mus musculus with 3 samples.

Results

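Genes of antigen presentation were followed through single cells of mouse Peyer's patches (PP), the lymphoid follicles of the gut wall. The 10 genes are H2-K1, H2-D1 and B2m (class I molecule), Tap1 and Tap2 (peptide transport), Psmb8 and Psmb9 (immunoproteasome), and Cd74, H2-Aa and H2-Ab1 (class II pathway). The genes were chosen by name, and all 10 have a row among the 31053 gene identifiers that the 3 libraries share. The libraries came from cells labelled as blood endothelial cells (EC) of mice aged 6-10 weeks, with male and female cohorts pooled and the number of mice per library not given. The control library is labelled WT, strain C57BL/6. EC-iCOUP_OE replicates 1 and 2 came from mice carrying the CDH5(PAC)CreERT2 driver and the COUP-TFIIOE/OE alleles, in which tamoxifen turns on a transgene for COUP-TFII (gene Nr2f2), the transcription factor of venous identity, in cells with an active Cdh5 promoter, that is endothelium. Cells were taken 14-19 days after tamoxifen, which the protocol describes for EC-iCOUP_OE and control mice alike. Control mice are represented by a single library, so how far they vary is unknown, and genotype and library cannot be told apart. The strain background of the EC-iCOUP_OE mice is not named in the labels, so it cannot be told apart from the genotype either.

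Nearly every cell displays fragments of its own proteins on class I molecules. H2-K1 and H2-D1 encode the heavy chains, and B2m encodes β2-microglobulin, the light chain that the heavy chains need to reach the surface. Proteasomes cut the proteins, and under interferon the subunits encoded by Psmb8 and Psmb9 replace constitutive ones. The TAP transporter, made of the Tap1 and Tap2 products, then pumps the peptides into the endoplasmic reticulum. Class II molecules, built from chains such as those encoded by H2-Aa and H2-Ab1 and escorted by the invariant chain Cd74, belong mainly to B cells, dendritic cells and macrophages, and other cells, endothelium included, can make them under interferon-γ. Endothelium meets circulating lymphocytes first, and high endothelial cells (HEC) of PP are where these enter the tissue.

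Of the 10 genes, 8 lie within chr17:33996017-35267499 (GRCm38, GENCODE M21), the mouse H2 region. Positions are H2-K1 at chr17:33996017-34000347 on the minus strand, H2-D1 at chr17:35262730-35267499 on the plus strand, and H2-Ab1 and H2-Aa at chr17:34257689-34269419 and chr17:34282744-34287823. Between them lie Psmb9 (chr17:34181987-34187764), Tap1 (chr17:34187553-34197225), Psmb8 (chr17:34197721-34201454) and Tap2 (chr17:34203527-34216321). B2m lies at chr2:122147686-122153083, and Cd74 on chromosome 18. Tap1 and Psmb9 overlap at their starts on opposite strands, and B2m, Tap2 and Psmb8 overlap genes on the opposite strand. The heavy-chain genes, including the H2-Q and H2-T genes below, are close copies of each other, so the split of reads between them is uncertain.

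The promoters of H2-K1, H2-D1 and B2m are shown because these genes moved differently between libraries. Each is the 250 bases before a start site (RefSeq, GRCm38.p6), and capitals mark matches on either strand to 3 motifs, namely an interferon regulatory factor core (AANNGAAA), a κB motif (GGGA and CC with any 4 bases between) and a CCAAT box (CCAAT). The 3 windows are H2-K1 at chr17:34000348-34000597 (minus strand), H2-D1 at chr17:35262844-35263093 (plus strand) and B2m at chr2:122147437-122147686 (plus strand).

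H2-K1: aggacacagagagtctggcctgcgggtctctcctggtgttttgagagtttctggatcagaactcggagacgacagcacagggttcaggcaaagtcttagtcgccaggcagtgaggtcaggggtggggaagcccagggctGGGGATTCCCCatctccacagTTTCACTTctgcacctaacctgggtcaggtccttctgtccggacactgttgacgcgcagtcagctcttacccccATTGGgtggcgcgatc

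H2-D1: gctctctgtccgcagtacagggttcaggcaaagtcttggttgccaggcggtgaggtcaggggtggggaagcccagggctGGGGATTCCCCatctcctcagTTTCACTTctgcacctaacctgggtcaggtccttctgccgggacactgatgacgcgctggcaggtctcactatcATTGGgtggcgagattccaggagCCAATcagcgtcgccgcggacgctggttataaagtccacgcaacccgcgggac

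B2m: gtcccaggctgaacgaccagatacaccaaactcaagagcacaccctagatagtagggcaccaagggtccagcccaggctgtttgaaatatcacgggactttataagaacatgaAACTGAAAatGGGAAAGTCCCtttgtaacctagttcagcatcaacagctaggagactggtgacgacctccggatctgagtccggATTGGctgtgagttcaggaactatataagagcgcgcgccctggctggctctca

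All 3 windows held each of the 3 motifs, which occur in 21.3% (interferon regulatory factor core), 17.6% (κB, where 2 overlapping matches often share the bases) and 33.8% (CCAAT) of 32851 promoter windows of this length. None held the fourth motif searched, TTCNNNGAA, found in 7.02% of the windows. The H2-K1 and H2-D1 windows were identical at 166 of 190 aligned bases (87.4%). A match is a description of letters, not a shown binding site.

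The libraries held 6080, 4959 and 1441 cell barcodes with 17341398, 17417260 and 3548983 unique molecular identifiers (UMIs, counted transcript molecules) in the control and EC-iCOUP_OE replicates 1 and 2. After filtering, 5341, 4704 and 1239 cells were kept, of which 46.1%, 74.5% and 80.1% were blood EC by their markers, so the label holds for under 50% of control cells. The other control cells were mostly fibroblasts (2033), fibroblastic reticular cells (457) and enteric glia (205). EC-iCOUP_OE libraries held 922 and 127 lymphatic EC and the control none. The control and replicate 2 shared 12 barcodes and the other pairs 0. Nr2f2 checked the labels. In PP capillary EC (PP CapEC) it stood at 10.2 CPM (UMIs of the gene scaled to 1000000 UMIs of the class) in the control, 2072 in replicate 1 and 1201 in replicate 2. Pericytes and smooth muscle, which should not carry an active Cdh5 promoter, also had more Nr2f2 (265, 1234 and 635 CPM), though the class held some Cdh5 (211, 247 and 24.4 CPM).

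Cells were clustered without the antigen presentation genes, and each cluster name below means cells resembling that type by markers. Beside PP CapEC (799, 988 and 474 cells in the control, replicate 1 and replicate 2), the blood EC were capillary resident progenitors (CRP; 154, 225, 105), arterial EC (435, 163, 61), postcapillary venule EC (PCV; 423, 775, 93), HEC (421, 101, 3) and dividing EC (23, 154, 20). A further 3 clusters stayed unnamed and are called by their leading genes, Bmp2/Col8a1/Pi16 (126, 79, 55), Colec12/Ltc4s/Hamp (80, 470, 25) and Cyp1a1/Enpp6/Stmn2 (3, 549, 157). PP CapEC pools 5 clusters that the libraries filled unequally. The largest cluster of replicate 1 held 33, 762 and 107 cells of the control, replicate 1 and replicate 2, that of the control 416, 74 and 31, and that of replicate 2 0, 17 and 208, so the PP CapEC compared below came mostly from different clusters in each library. Another cluster held 270, 109 and 124 cells, and in it alone 38 genes were called higher by the rule given below. In all PP CapEC 257 of 6119 genes were. With fewer cells, fewer genes reached the UMI minimum of the rule in that cluster, so these counts do not share a base. Dividing EC also differed between libraries in HEC markers, which summed to 35157 CPM there in the control, 2621 in replicate 1 and 3775 in replicate 2. Lamina propria CapEC did not form a cluster of their own at the main resolution. Replicate 2 had too few HEC to compare, and no class with fewer than 10 cells in a library was compared there.

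The 7 class I pathway genes were transcribed in every EC subset of the control, and their levels differed by up to 2.46 times between the named subsets. In control PP CapEC the levels were 2233 CPM for H2-K1, 6183 for H2-D1, 6048 for B2m, 77.1 for Tap1, 209 for Tap2, 469 for Psmb8 and 244 for Psmb9. Across the 6 named EC subsets of the control library, the highest level was 1.90 times the lowest for H2-K1, 1.32 times for H2-D1, 2.16 times for B2m, 1.73 times for Tap1, 2.46 times for Tap2, 1.45 times for Psmb8 and 1.80 times for Psmb9. H2-K1 and B2m were lowest in arterial EC (1741 and 4418 CPM) and highest in HEC (3307 and 9527 CPM), whereas Tap2, Psmb8 and Psmb9 were lowest in HEC (85.0, 327 and 142 CPM). Replicate 1 had the same order at the top, with 5733 CPM of H2-K1 and 3820 of B2m in HEC.

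**Figure D1:**
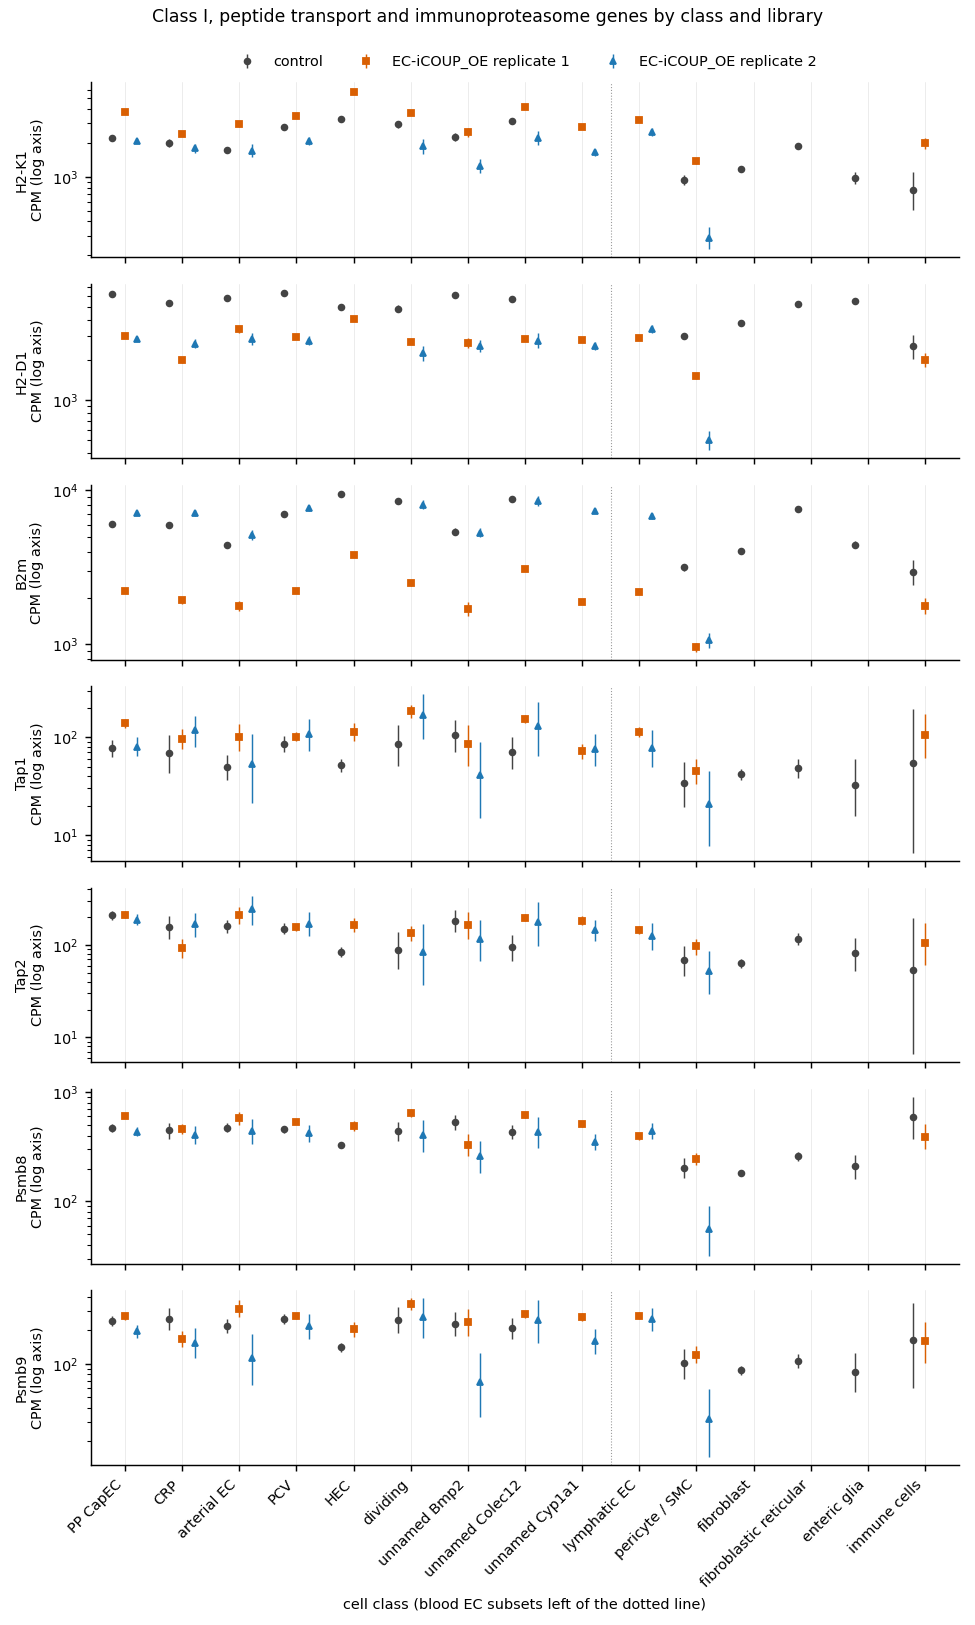
Level of each class I pathway gene (CPM of UMIs summed over the cells of a class, log axis) in each cell class, with 1 point per library and 95% counting intervals. H2-D1 points of the control lie above every EC-iCOUP_OE point of the same EC subset, and B2m of replicate 1 lies below the other libraries in the EC subsets, as in PP CapEC (6048, 2219 and 7120 CPM), but beside replicate 2 in pericytes and smooth muscle (3160, 953 and 1057 CPM).

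These orders were tested with an edgeR quasi-likelihood fit on UMIs summed per class and library, with library as a term, each class against PP CapEC and Benjamini-Hochberg adjustment over 9719 genes. None of the 7 genes passed in CRP, PCV, arterial EC or the 3 unnamed clusters, where 2.27%, 9.74%, 4.73%, 5.12% (Bmp2/Col8a1/Pi16), 12.9% (Colec12/Ltc4s/Hamp) and 2.71% (Cyp1a1/Enpp6/Stmn2) of all genes passed. The H2-K1 difference from PP CapEC was 0.05 (log2) in PCV (adjusted p = 0.977) and -0.34 in arterial EC (adjusted p = 0.601). Dividing EC, where 14.4% of genes passed, had less Tap2 (log2 -0.90, adjusted p = 0.0163). In HEC, where 32.8% passed, B2m was higher by 0.66 (adjusted p = 0.0349) and Tap2 lower by a log2 of -0.80 (adjusted p = 0.0140). H2-K1 in HEC was at 0.52 (adjusted p = 0.100) and Psmb9 at -0.64 (adjusted p = 0.0522), short of the threshold.

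The HEC result moved with the scaling. The deep HEC transcriptomes (median 7458 UMIs per control cell, against 1451 in PP CapEC) gave 713 genes higher and 2476 lower by CPM, and 1235 higher and 1143 lower with TMM factors (the trimmed mean of M values). Under TMM the B2m difference was 0.97 (adjusted p = 0.00875), H2-K1 passed at 0.83 (adjusted p = 0.0271) and Tap2 no longer did (log2 -0.47, adjusted p = 0.152). Without replicate 1, which left 1 HEC library, B2m did not pass (0.48, adjusted p = 0.338). Of 35 tested genes of 6 further antigen presentation lists, 4 were higher in HEC (Calr and Canx, chaperones of the heavy chain, Psmb7 and H2-M2) and 9 lower, among them H2-Q4, H2-T22, Tapbp (tapasin, which bridges TAP and class I) and Tapbpl.

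All 7 genes were lower in pericytes and smooth muscle than in PP CapEC, from a log2 of -1.35 for H2-D1 (adjusted p = 1.42e-05) to -1.71 for H2-K1 (adjusted p = 3.66e-07), where 26.1% of all genes passed. Of the 35 further pathway genes, 17 were lower there and 0 higher. Pericytes had 943, 1373 and 286 CPM of H2-K1 and 3020, 1525 and 499 of H2-D1 in the control, replicate 1 and replicate 2. Control pericytes thus held under 50% of the PP CapEC level of either heavy chain.

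Fibroblasts, nearly all from the control library, had less H2-K1 (log2 -1.13, adjusted p = 0.00694), Psmb8 (-1.50, adjusted p = 0.00102), Psmb9 (-1.51), Tap1 (-0.87) and Tap2 (-1.53), with 39.9% of all genes passing. H2-D1 (-0.69) and B2m (-0.69) did not pass there (adjusted p = 0.0913 and 0.0902). Fibroblastic reticular cells, the stroma that guides lymphocytes, had B2m at 7578 CPM and H2-D1 at 5241 CPM, neither different from PP CapEC (adjusted p = 0.604 and 0.634), and less Psmb8 (-0.99) and Psmb9 (-1.23) among 35.7% of genes. Enteric glia (22.3% of genes passed) had less H2-K1 (-1.36, adjusted p = 0.00347), Psmb8, Psmb9 and Tap2. H2-D1 in glia, at 5534 CPM in the control, differed from PP CapEC by -0.12 (adjusted p = 0.869). Lymphatic EC, where 25.4% of genes passed, differed in none of the 7. The fibroblast, reticular and glial profiles each rest on 1 library, and their splits moved with the scaling, from 1848 genes higher and 2028 lower to 2177 and 1505 with TMM in fibroblasts and from 1445 and 2024 to 1846 and 1338 in reticular cells.

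EC-iCOUP_OE cells were compared with the control class by class. Because the control is 1 library, no test was the main result. A gene was called higher or lower where each EC-iCOUP_OE library differed from the control by 2-fold or more in the same direction. Only genes reaching 50 UMIs in any library of the class were considered, and intervals cover counting error only. Over the 7 EC subsets with enough cells in each library, the 10 genes gave 48 gene-by-subset values. None was called higher, 4 were called lower, and in 23 the replicates moved in opposite directions. In PP CapEC 1 of 7 tested was above the control in both replicates and 1 below it in both, against 1875 and 2290 of all 6119 genes. In the Colec12/Ltc4s/Hamp cluster 4 of 8 were above in both and 3 below in both, against 2333 and 1504 of 6035. The share of all genes called higher and lower was 4.2% and 2.47% in PP CapEC, 5.22% and 1.95% in CRP, 1.57% and 2.84% in arterial EC, 3.13% and 1.66% in PCV, 9.49% and 1.63% in dividing EC, 3.52% and 3.52% in the Bmp2/Col8a1/Pi16 cluster, 5.6% and 1.36% in the Colec12/Ltc4s/Hamp cluster, and 2.27% and 1.81% in pericytes. Scaling by TMM moved the median of all genes by -0.12 and -0.21 in dividing EC, and in replicate 2 by -0.21 in the Colec12/Ltc4s/Hamp cluster, 0.17 in pericytes, 0.11 in PP CapEC and 0.10 in CRP, and by less than 0.1 elsewhere.

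H2-D1 was lower in both replicates in all 7 subsets, which no other of the 10 genes was. In PP CapEC it was 6183 CPM in the control, 3023 in replicate 1 (log2 -1.03, 95% interval -1.08 to -0.99), and 2850 in replicate 2 (-1.12, -1.18 to -1.06). PCV went from 6358 CPM to 2972 and 2793, and CRP from 5373 to 1997 and 2646. Both replicates were below the control in each of these subsets. They differed from each other by 0.08 (log2) in PP CapEC and by 0.41 in CRP, where the median gap of all genes was 0.38. The 4 calls were PP CapEC, CRP (-1.43 and -1.02), PCV (-1.10 and -1.19) and the Bmp2/Col8a1/Pi16 cluster (-1.20 and -1.28).

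Arterial EC (-0.79 and -1.04), dividing EC (-0.82 and -1.11) and the Colec12/Ltc4s/Hamp cluster (-0.98 and -1.03) missed the 2-fold rule in replicate 1. HEC had 4948 CPM in the control and 4071 in replicate 1. The decrease was near the threshold, and the calls moved with the processing, since in PP CapEC the rule was met under 8 of 13 alternatives while both ratios stayed below 0 under all of them. In the PP CapEC cluster of 270, 109 and 124 cells the ratios were -0.49 and -0.72, short of the rule. Fitted as 1 library against 2, which assumes that the control varies like the EC-iCOUP_OE libraries, edgeR gave an adjusted p of 0.569 for H2-D1 in PP CapEC.

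H2-K1 did not follow H2-D1. PP CapEC had 2233 CPM in the control, 3788 in replicate 1 (log2 0.76, 0.70 to 0.82) and 2095 in replicate 2 (-0.09, -0.17 to -0.01). Replicate 1 was above the control and replicate 2 below it in all 7 subsets, with ranges of 0.13 to 0.77 and -0.85 to -0.02. Counting intervals excluded 0 in 6 of the 7 for replicate 1 and in 5 for replicate 2. Some signs changed with the processing, as replicate 2 reached 0.09 in PP CapEC and replicate 1 reached -0.27 in CRP. The gap between replicates, 0.85 in PP CapEC, exceeded that of most genes there, as 14.5% of genes had a larger one. In CRP the gap was 0.41, and 46.0% of genes had a larger one.

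B2m differed between the replicates in all 7 EC subsets. In PP CapEC it stood at 6048 CPM in the control, 2219 in replicate 1 (log2 -1.45, -1.50 to -1.40) and 7120 in replicate 2 (0.24, 0.19 to 0.28). In PCV it was 7069, 2229 and 7700 CPM. Replicate 1 was low in every subset (-1.77 to -1.31), HEC included (9527 and 3820 CPM), while replicate 2 lay between -0.07 and 0.25. The replicates differed by 1.48 to 1.88 (log2) over the subsets, and in PP CapEC 2.57% of genes differed by more, against a median of 0.36 over all genes. In the Bmp2/Col8a1/Pi16 cluster Psmb9 differed by more (1.80, against 1.65 for B2m), and in pericytes B2m differed by 0.15 and H2-K1 by 2.26.

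**Figure D2:**
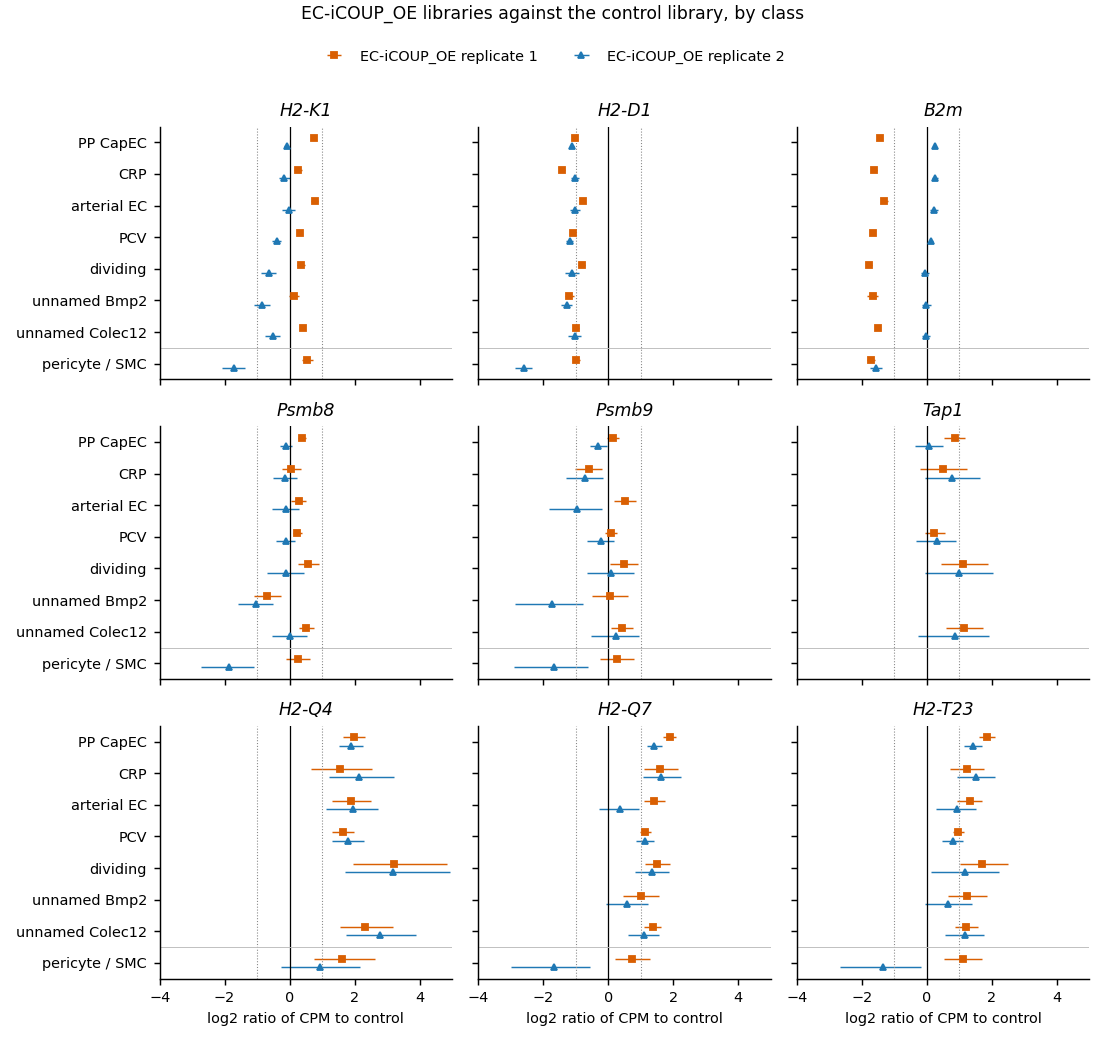
Log2 ratio of CPM in each EC-iCOUP_OE library to the control for 6 of the class I pathway genes and for H2-Q4, H2-Q7 and H2-T23 in each compared class, with 95% counting intervals and dotted lines at 2-fold; the last class, pericyte or smooth muscle, is not EC. H2-D1 is negative in both replicates throughout, and B2m of replicate 1 is negative (-1.77 to -1.31 in the EC subsets) where replicate 2 is near 0 in the EC subsets.

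The transport and immunoproteasome genes met the rule in no subset, though single ratios passed 2-fold. Tap1 went from 77.1 CPM in control PP CapEC to 139 and 80.5 in replicates 1 and 2. In the 5 subsets where it could be compared its ratios were 0.23 to 1.13 in replicate 1 and 0.06 to 1.00 in replicate 2. Counting intervals lay above 0 in 3 of these subsets in replicate 1 and in 0 in replicate 2. Dividing EC came nearest the rule (1.12 and 1.00, just short of it). With too few UMIs to be considered, Tap1 was at 1.00 and 0.09 in arterial EC and at -0.31 and -1.37 in the Bmp2/Col8a1/Pi16 cluster. Tap2 stayed level in PP CapEC at 209, 213 and 189 CPM. Over the 7 subsets its ratios spread from -0.77 to 1.05 in replicate 1 and -0.66 to 0.89 in replicate 2, with both highest in the Colec12/Ltc4s/Hamp cluster. Psmb8 was 469, 611 and 435 CPM in PP CapEC, and Psmb9 244, 268 and 198 CPM. In the Bmp2/Col8a1/Pi16 cluster Psmb8 was at -0.68 and -1.04, and Psmb9 at 0.05 and -1.75, the last from 10 UMIs. For both, the ratio of replicate 1 exceeded that of replicate 2 in every subset, by 0.19 to 0.68 for Psmb8 and 0.11 to 1.80 for Psmb9.

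A ratio of 2 genes within a library needs no scaling between libraries. Over the blood EC subsets, H2-K1 per H2-D1 UMI ran from 0.298 to 0.668 in the control, 0.877 to 1.44 in replicate 1 and 0.497 to 0.839 in replicate 2. Thus the range of replicate 1 did not overlap that of the control, and that of replicate 2 did. The highest control value, 0.668, was that of HEC, which replicate 2 had too few of to compare. Subset by subset, replicate 2 lay above the control in each EC subset compared, as in PP CapEC (0.361 in the control, 0.735 in replicate 2) and PCV (0.435 and 0.750). B2m per H2-K1 UMI was 2.37 to 2.95 in the control, 0.586 to 0.803 in replicate 1 and 2.99 to 4.46 in replicate 2. Replicate 1 lay below the other libraries, whose ranges nearly touched, at 2.95 in control CRP and 2.99 in replicate 2 arterial EC. The latter rests on 226 H2-K1 UMIs, and these ratios carry no counting interval. How many other gene pairs part the libraries in this way was not counted. B2m per UMI of both heavy chains together was 0.582 to 1.15, 0.281 to 0.438 and 1.12 to 1.97.

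Over all classes replicate 1 still stood apart, at 0.586 to 0.893 B2m UMIs per H2-K1 UMI in 12 classes, whereas the control (2.37 to 4.55 in 13) and replicate 2 (2.70 to 4.46 in 10) overlapped. Pericytes had 3.35, 0.694 and 3.70 B2m UMIs per H2-K1 UMI in the control, replicate 1 and replicate 2, immune cells had 3.86 in the control and 0.893 in replicate 1, and lymphatic EC 0.684 in replicate 1 and 2.70 in replicate 2. Fibroblasts, fibroblastic reticular cells and enteric glia, compared in the control library alone, had 3.45, 4.05 and 4.55. H2-K1 per H2-D1 in pericytes was 0.312, 0.900 and 0.573. What sets the libraries apart was not tested.

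**Figure D3:**
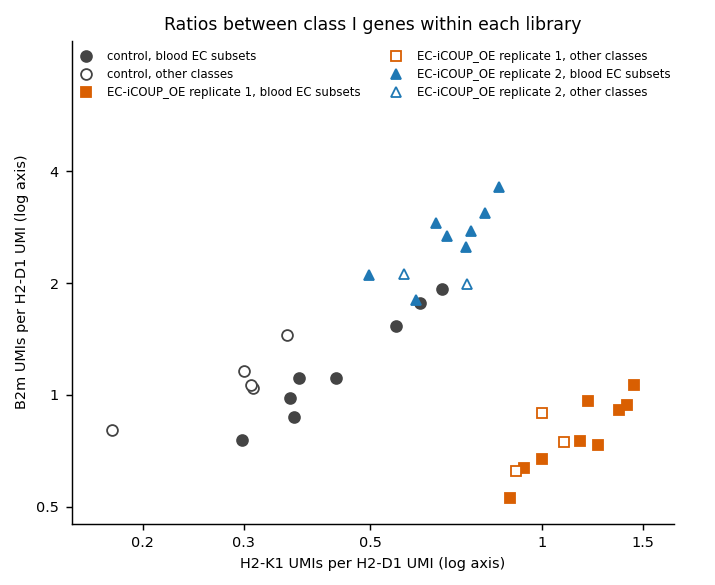
B2m UMIs per H2-D1 UMI (vertical log axis) against H2-K1 UMIs per H2-D1 UMI (horizontal log axis) within each library, 1 point per cell class, filled for blood EC subsets and open for other classes. Replicate 1 lies to the right, with H2-K1 per H2-D1 at 0.877 or more, and replicate 2 lies highest, with B2m per H2-D1 at 1.80 to 3.62 against 0.756 to 1.93 in the control, so that these 2 ranges overlap at their ends.

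In pericytes and smooth muscle B2m was lower in both replicates (3160, 953 and 1057 CPM; log2 -1.73 and -1.58) and met the rule. H2-D1 there was at -0.99 and -2.60, and H2-K1 at 0.54 and -1.72. Replicate 2 was the lowest library for both heavy chains. The pericyte class also held less endothelial RNA in replicate 2, since 8 blood EC markers summed to 2233, 2573 and 527 CPM, which is 42.6%, 43.5% and 11.6% of the level in PP CapEC. Pecam1, an endothelial adhesion molecule, was lowest in replicate 2 as well (426, 386 and 55.8 CPM), and Acta2, a smooth muscle actin, was highest there (4473, 6167 and 10382 CPM). The part of this in the pericyte ratios was not tested.

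Of the nonclassical class I-like genes, H2-Q4, H2-Q6, H2-Q7, H2-T23 and Hfe met the rule as higher in EC-iCOUP_OE in some or all subsets, and H2-T22, H2-M3, Cd1d1, Mr1 and Fcgrt in none. Of 54 gene-by-subset values of this list, 20 were called higher, 0 lower, and 4 had replicates in opposite directions. In PP CapEC all 9 tested were above the control in both replicates, as were 1875 of all 6119 genes. In PP CapEC 5 of 9 tested genes were called higher, and the medians over the 9 were 1.67 and 1.18 (log2) in replicates 1 and 2, against 0.04 and -0.13 over all genes. H2-Q4 was 59.7 CPM in the control, 235 in replicate 1 and 221 in replicate 2, and met the rule in all 6 subsets where it had enough UMIs. H2-Q7 was 183, 674 and 487 CPM (5 of 7 subsets), and H2-Q6 56.8, 283 and 131 CPM (2 of 6).

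H2-T23, which encodes Qa-1, a ligand of natural killer cell receptors, stood at 120, 430 and 319 CPM in PP CapEC and met the rule in 4 of 7 subsets. Hfe, which encodes the class I-like partner of the transferrin receptor, stood at 35.7, 113 and 80.5 CPM and met it in 3 of 5. In each of these 5 genes both replicates were above the control in PP CapEC. H2-T22 (233, 296 and 244 CPM) and Fcgrt, the neonatal Fc receptor (153, 242 and 161 CPM), were not called. Fitted as 1 library against 2 in PP CapEC, 5 of the 9 had an unadjusted p under 0.05 in edgeR and in DESeq2, and 0 passed after adjustment over all genes (lowest adjusted p = 0.108 and 0.0641). Set against H2-D1 within a library, H2-Q7 ran from 0.0205 to 0.0592 over the EC subsets of the control. The ratio ran from 0.127 to 0.292 in replicate 1 and from 0.0745 to 0.318 in replicate 2. H2-Q7 was higher and H2-D1 lower in these same data, so the gap between the ranges is no separate support for either. In pericytes 0 of 7 tested genes of the list were called, and 2 were above the control in both replicates. These were H2-Q4 (1.62 and 0.93) and Fcgrt (0.06 and 0.08). H2-Q6 (1.65 and -2.09), H2-Q7 (0.73 and -1.68) and H2-T23 (1.10 and -1.35) had replicates in opposite directions there.

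Genes that load the class I groove were mostly level. In PP CapEC 0 of 6 were called, with medians of -0.03 and 0.05. Calr, a chaperone of the heavy chain, was lower in both replicates without reaching 2-fold (518, 329 and 336 CPM), and Pdia3, its thiol oxidoreductase partner, was higher (267, 404 and 442 CPM). Erap1, the aminopeptidase that trims peptides, met the rule in the Colec12/Ltc4s/Hamp cluster alone. Psmb10, Psme1 and Psme2, the further inducible parts of the proteasome, were not called in PP CapEC (medians over the list 0.01 and -0.24). Psmb7, the constitutive subunit that Psmb10 replaces, was called lower in dividing EC and in the Colec12/Ltc4s/Hamp cluster, and stood at 193, 115 and 175 CPM in PP CapEC. Psmb7 was higher in HEC than in PP CapEC (above), and dividing EC of the control held the most HEC markers of the 3 libraries. The part of this in the dividing EC ratios was not tested.

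Of the regulators, 0 of 5 tested genes were called in PP CapEC. Irf1, an activator of class I promoters, was 241, 407 and 835 CPM. Irf8 was 14.6, 8.57 and 54.6 CPM. Replicate 2 was the highest library for Irf1 and for Irf8, and replicate 1 lay above the control for Irf1 and below it for Irf8.

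Genes of the interferon response were higher in PP CapEC for 9 of 19 tested, and 1, Gbp4, was lower. Cxcl10, a chemokine for T cells, stood at 21.8, 675 and 1572 CPM, Ifit3 at 18.9, 225 and 147 CPM and Socs1, an inhibitor of the pathway, at 16.7, 123 and 155 CPM. Ifit1, Ifit2, Isg15, Oasl2, Bst2 and Ly6e were also called. Gbp4 was 315, 125 and 91.1 CPM and was called lower in all 6 subsets where it could be compared. The medians over the list were 1.04 and 1.26, and several members, among them Stat2, Gbp7 and Igtp, were not called. The list was set down with earlier results of these data known.

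Class II genes were low in blood EC, and Cd74 was highest in HEC in the control and in replicate 1. Cd74 stood at 38.0 CPM over all blood EC of the control, 17.7 in replicate 1 and 9.41 in replicate 2. In HEC it was 77.9 CPM (68.4 to 88.4) in the control and 153 CPM (126 to 183) in replicate 1, against 16.7, 3.26 and 10.5 CPM in PP CapEC. HEC held 79.7% of the Cd74 UMIs of control blood EC and 50.4% of those of replicate 1. Since the 3 HEC of replicate 2 gave 0 UMIs, its level over all blood EC reflects subsets other than HEC.

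In the class fit, Cd74 was higher in HEC than in PP CapEC by 3.71 (log2, adjusted p = 1.97e-07) and H2-Ab1 by 1.78 (adjusted p = 0.00837). H2-Aa was at 1.65 (adjusted p = 0.0643). H2-Ab1 stood at 24.4 and 12.9 CPM in HEC of the control and replicate 1, and H2-Aa at 13.1 and 12.9 CPM. HEC held 76 of the 121 H2-Ab1 UMIs and 41 of the 74 H2-Aa UMIs of control blood EC, and 10 of 50 and 10 of 29 in replicate 1. In the control H2-Ab1 was 28.3 CPM in CRP, from 9 UMIs, beside 24.4 CPM in HEC. In dividing EC Cd74 was also higher (2.04, adjusted p = 0.0143), with 31.3, 37.9 and 10.6 CPM, from 7, 32 and 1 UMIs in 6, 8 and 1 cells. Dividing EC also held more HEC markers (35157, 2621 and 3775 CPM) than PP CapEC (277, 64.9 and 238 CPM). HEC themselves had 83746 CPM of these in the control and 24376 in replicate 1. These markers are not particular to HEC. They summed to 50084 CPM in control fibroblastic reticular cells, and to 14400 and 37777 CPM in lymphatic EC of replicates 1 and 2. How far dividing EC of the control lie apart from HEC was not tested. In replicate 1 dividing EC held less of these markers than the Colec12/Ltc4s/Hamp cluster (9082 CPM). The part of HEC in the Cd74 values of dividing EC was not tested.

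With each cell thinned to 1000 UMIs, 5.46% of control HEC (exact 95% interval 3.49 to 8.08) and 11.9% of replicate 1 HEC (6.29 to 19.8) had a Cd74 UMI. Without thinning the shares were 29.7% and 39.6%, at medians of 7458 and 6761 UMIs per cell. Arterial EC, which set the background here, had 0 of 435 control cells with a Cd74 UMI, at a median of 1790 UMIs. This allows a share of cells with a UMI of up to 0.690% by a limit of 3 counts, and 0.844% by the exact interval. Over all blood EC the thinned shares were 1.34%, 0.913% and 0.201%.

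**Figure D4:**
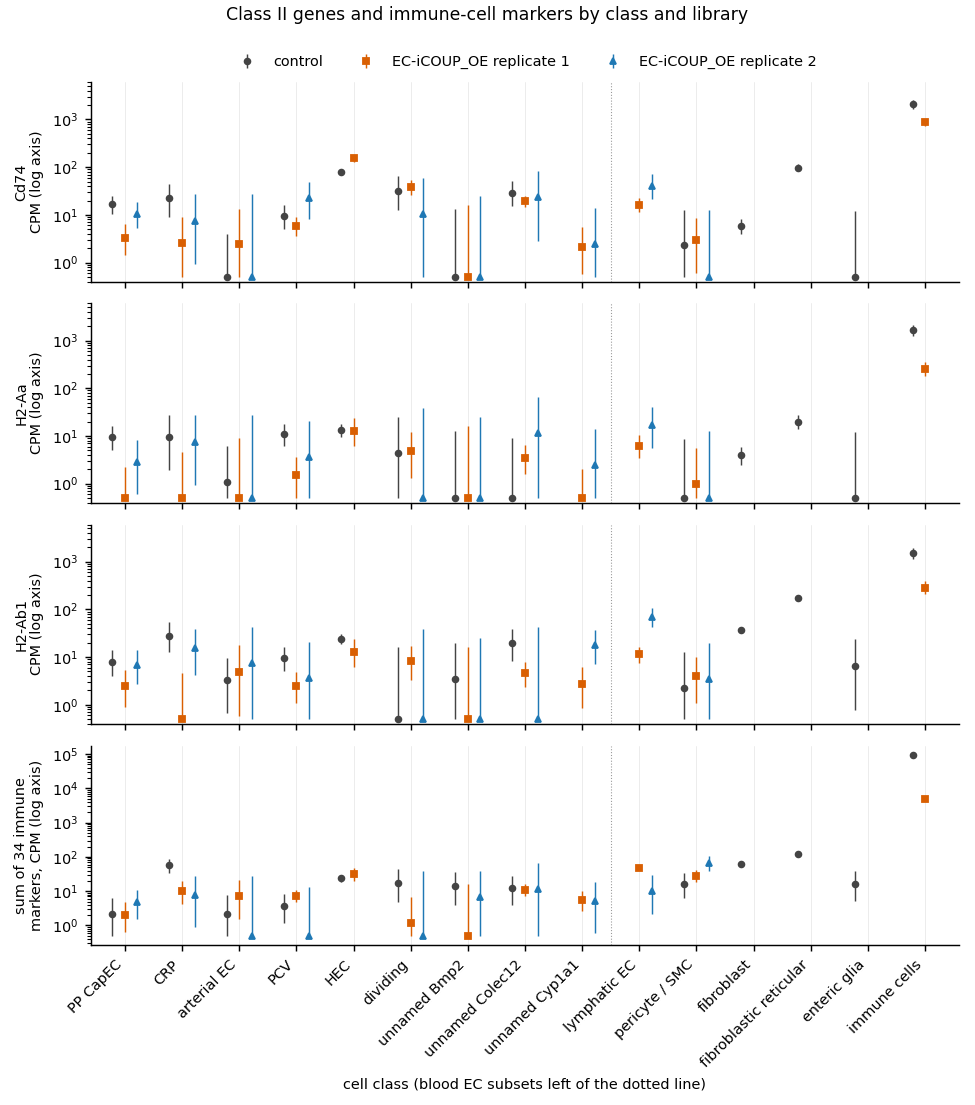
Level of Cd74, H2-Aa and H2-Ab1 (CPM, log axis, with points at 0 drawn at the lower edge) and, in the last panel, the summed level of 34 immune-cell markers (the 37 described below without Ebf1, Coro1a and Fcer1g, a choice made after the values were seen), in each cell class and library, with 95% counting intervals. Immune cells stand highest (Cd74 2093 and 865 CPM), and among the blood EC subsets Cd74 is highest in HEC in the control and replicate 1.

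Stromal classes had class II transcripts as well. With cells thinned as above, 16.4% of the 457 fibroblastic reticular cells of the control held an H2-Ab1 UMI. The share in the next sentence is without thinning. Fibroblastic reticular cells of the control had 97.6 CPM of Cd74 and 172 CPM of H2-Ab1, above PP CapEC by 3.29 (adjusted p = 6.75e-06) and 4.41 (adjusted p = 5.27e-09), with 38.7% of 457 cells holding an H2-Ab1 UMI. Fibroblasts had 36.5 CPM of H2-Ab1 (2.18, adjusted p = 0.000641) and 5.75 CPM of Cd74 (-0.77, adjusted p = 0.374). Lymphatic EC had more H2-Ab1 (11.3 and 68.3 CPM; 2.71, adjusted p = 0.000145) and H2-Aa (2.00, adjusted p = 0.0483) than PP CapEC. The 34 immune markers summed to 123 CPM in reticular cells, 62.8 in fibroblasts, and 48.6 and 10.2 in lymphatic EC of replicates 1 and 2. At the immune cells' ratio to these markers, 33.8 of the 81 class II UMIs of replicate 1 lymphatic EC would be background. In the control it would be 11.5 of 480 in reticular cells and 19.7 of 257 in fibroblasts. The part of immune cell RNA in these values was not tested further.

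Immune cells were few, 18 in the control, 30 in replicate 1 and 4 in replicate 2. In them the class II genes were higher than in PP CapEC and the 2 heavy-chain genes lower. Cd74 stood at 2093 and 865 CPM, H2-Aa at 1631 and 253 and H2-Ab1 at 1495 and 286 in the control and replicate 1, between 7.32 and 7.72 (log2) above PP CapEC, where 12.7% of genes passed. H2-D1 (-0.90, adjusted p = 0.0191) and H2-K1 (-1.12, adjusted p = 0.00403) were lower, and none of the other class I pathway genes passed.

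Whether class II reads in EC came from immune cells was judged by markers. Of 37 B cell, T or natural killer cell, myeloid and pan-leukocyte markers, 13, 19 and 27 were at 0 in blood EC of the control, replicate 1 and replicate 2, among them Cd3e, Cd3g, Cd4, Cd8a, Csf1r, C1qb and Itgax in all 3. The list summed to 490, 301 and 449 CPM in blood EC and 93647 and 7168 CPM in immune cells of the control and replicate 1. In blood EC 84.9%, 94.1% and 98.4% of these UMIs were Ebf1, a B cell factor that endothelium and stroma also express. Ptprc, which encodes the leukocyte antigen CD45, had 1, 1 and 0 UMIs in all blood EC.

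HEC held more class II UMIs per immune marker UMI than immune cells of the same library, 0.380 against 0.0557 in the control and 0.660 against 0.196 in replicate 1. In PP CapEC the ratio was 0.0461 in the control and 0.0155 in replicate 1. Ebf1 made up 99.3% of the PP CapEC marker UMIs in each of these libraries. Over the 34 markers left without Ebf1, Coro1a and Fcer1g, the PP CapEC ratio was 15.7 in the control and 3 in replicate 1. These values rest on only 3 and 5 marker UMIs. Over the same 34 markers, the ratio was 0.0565 and 0.291 in immune cells, and 4.86 and 5.75 in HEC. Some leukocyte markers other than Ebf1 were also found in HEC of the control. There HEC held 149 of the 191 blood EC UMIs of Coro1a, an actin regulator of leukocytes, and 162 of the 287 of Fcer1g, an Fc receptor chain. Of the UMIs of all genes in control blood EC, HEC held 3118787 of 8025236. Myeloid markers, Fcer1g among them, summed to 51.9 CPM in control HEC, 59.2 in PCV and 55.9 in the Colec12/Ltc4s/Hamp cluster. In replicate 1 HEC held 30 of 81 Coro1a and 5 of 48 Fcer1g UMIs, and PP CapEC of the control 0 and 4. Read against the pan-leukocyte markers alone, Coro1a included, immune cells' ratio would give 201 of the 360 class II UMIs of control HEC and 20.1 of the 138 of replicate 1. Read against the 34 markers, it would give 4.18 of the 360 and 6.98 of the 138, so the estimate depends on the markers chosen.

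Without the cells that held any of the 37 markers, 82 of 421 control HEC and 18 of 101 replicate 1 HEC were left. Cd74 then went from 77.9 to 34.7 CPM in control HEC (18 UMIs) and from 153 to 180 CPM in replicate 1 HEC (20 UMIs). Ebf1 made up 59.3% and 71.8% of the marker UMIs in these HEC. Leaving out only cells with any of the 34 markers kept 403 of 421 and 97 of 101 HEC. Cd74 was then 73.5 CPM in the control and 132 CPM in replicate 1. The part of immune cell RNA in the class II values of HEC was not tested further. The immune cells of the control were led by Igkc (2711 UMIs). Those of replicate 1 held 69 Igkc and 241 Fcer1g UMIs and 2103 CPM of Cpa3. Leading genes of the immune cluster included Prss34, Mcpt8 and Cpa3 beside Igkc. Other immune types are thus not covered by the ratio of either library. Ciita, the master activator of class II genes, had 1 and 0 UMIs in HEC of the control and replicate 1, and H2-DMa, which encodes a chain of the class II peptide exchanger, 10 and 2. Most of the class II pathway was too low for comparison between genotypes. Cd74 could be compared in 1 subset, the Colec12/Ltc4s/Hamp cluster, at -0.60 and -0.31, and of 9 further class II genes in the files 1 was tested in PP CapEC. That gene, Lgmn, a lysosomal protease, was called lower (130, 52.2 and 56.6 CPM).

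Among the genes whose level followed the mean of the 7 class I pathway genes most closely, over 35 class and library profiles and among 9641 genes, were Ppp1r13b (Pearson's r = 0.752), Traf1 (0.743), Nmi (0.733) and St3gal6 (0.733). The 7 genes themselves ranged from 0.510 (B2m) to 0.873 (Psmb8) against their own mean. The profiles share libraries and depth, so r is a description. Nmi was lowest in replicate 2 pericytes (20.9 CPM) and highest in control PP CapEC (116 CPM), and St3gal6 ran from 4.32 CPM in control fibroblasts to 488 in replicate 1 HEC. The genes closest to the class II mean were Acp5 (0.911), Hvcn1 (0.906), Satb1 (0.873), Lck (0.860) and Cpa3 (0.837), each highest in immune cells.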

How the data were processed

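The deposited files hold raw UMI counts per gene and cell barcode, which the authors made with Cell Ranger (3.0.2 in the labels; 3.1.0 in the header of EC-iCOUP_OE replicate 1) on mm10, 1 matrix per library. Nothing was scaled by the authors. The labels name the v3 platform with a v2 kit.

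Cells needed 500 genes and 1000 UMIs, with mitochondrial UMIs no higher than 10%, and doublets were left out with Scrublet (scanpy 1.11.5). Seurat 5.3.0 (R 4.3.3) was used to align the 3 libraries and cluster their cells (2000 variable genes without 92 genes of the pathway lists, 30 components, 20 neighbours, resolution 1). Clusters were named by marker lists, and left unnamed where a lymphatic list led or leading genes or the study's own cell labels (1934 matched) disagreed. UMIs were summed per class and library and given as CPM. Counting intervals (95%) are exact and cover counting error only, PCR duplicates being removed by the UMIs. Class levels used edgeR 4.0.16 (quasi-likelihood, class and library as terms), and DESeq2 1.42.0 was an alternative. The 2-fold rule and the fits were tested on simulated data.

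Genes named are the 10 genes, listed pathway genes that met the 2-fold rule, the 5 genes nearest each mean profile, and marker genes; further list genes were named after their values were seen. The genes and lists were chosen with earlier results of these data known. H2-Q5, H2-T10, H2-Ea-ps and Ifi30 were not analysed here, so a planned check of strain background with H2-Ea-ps was not run. Some genes that the rules selected are not reported here.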

Additional observations from a re-analysis of the deposited data

Results flagged for a closer look

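Irf1, an activator of class I promoters, moved in opposite directions in 2 cell classes. Both EC-iCOUP_OE libraries were above the control in PP CapEC (241, 407 and 835 CPM in the control, replicate 1 and replicate 2; mean log2 ratio 1.28) and both below it in pericytes and smooth muscle (341, 217 and 140 CPM; mean log2 ratio -0.97). The difference between the classes was not tested, since the control is 1 library. The pericyte class of replicate 2 held less endothelial RNA than that of the other libraries, and the part of this in the Irf1 values was not tested.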

How the results depend on the processing

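Of 586 alternative values of 37 ratios of the named class I genes, 529 counted as unchanged, 26 lost a call, 11 gained one, 20 moved and 0 reversed. These ratios are from PP CapEC, CRP, PCV, arterial EC and pericytes, without dividing EC and the unnamed clusters. A called ratio counted as unchanged where the call stayed, and reversal was counted for called ratios only. An uncalled ratio counted as unchanged where it stayed uncalled and within the replicate spread, so its direction could change. With 1 EC-iCOUP_OE library left out, the value always lies within that spread, so those settings could not count as moved by size. B2m in PP CapEC, for example, had a mean log2 ratio of -0.61, and 0.24 with replicate 2 alone. Of 219 alternative values of the 34 class differences that passed, 185 still passed and 34 did not.

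In PP CapEC 257 genes were called higher and 151 lower. Higher calls were 413 with each library clustered separately, 38 in the PP CapEC cluster shared by all libraries (chosen after seeing the data), 564 at a minimum of 10 UMIs, 621 with no minimum, 28 in edgeR and 53 in DESeq2, and 381 to 497 with 1 EC-iCOUP_OE library left out. Lower calls were 71 in cells without immune marker UMIs, 28 in the shared cluster, 354, 446, 15 and 13 in the same order of the others, and 342 to 395 with 1 library left out.

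Over all compared classes 0 values of the 10 genes were called higher and 5 lower. Higher calls became 1 with the mean of CPM over cells, 2 without immune marker cells, 1 under another arithmetic kernel (added later), and 0 to 3 with 1 library left out (3 without replicate 2). Lower calls became 3 at resolution 1.6, with separate clustering and with the mean of CPM, 2 without immune marker cells, 8 at 10 UMIs, 9 with no minimum, and 12 to 14 with 1 library left out. They became 0 in edgeR and 0 in DESeq2, where 4 and 7 of 54 values had an unadjusted p under 0.05. The 5 class I-like calls in PP CapEC became 3 in the shared cluster and 0 in edgeR and 0 in DESeq2. In the shared cluster Hfe was past 2-fold in both replicates (1.95 and 1.33) but had too few UMIs to be considered. H2-T23 fell short there in replicate 2 (1.53 and 0.97).

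Against PP CapEC, HEC had 3 genes higher and 1 lower. With TMM and with DESeq2 these were 5 and 0, and with 1 library left out 1 to 4 and 0 to 1 (1 and 0 without the control, 2 and 1 without replicate 1). Lymphatic EC had 2 higher and 0 lower, against 1 higher with TMM (1 lower), with DESeq2, and with any 1 library left out (1 each time). Fibroblasts had 5 lower, against 3 with TMM and 3 with DESeq2. Fibroblastic reticular cells had 2 lower, against 1 with TMM, with DESeq2 and at resolution 1.6, and 1 to 2 with 1 library left out (1 without replicate 1). The causes were not tested.

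Without thinning, 6.37%, 2.65% and 0.806% of blood EC and 29.7% and 39.6% of HEC had a Cd74 UMI. In cells without any immune marker UMI, Cd74 was 18.0, 9.30 and 20.7 CPM over blood EC, 34.7 CPM in control HEC (from 77.9) and 180 CPM in replicate 1 HEC (from 153). Depth limits class II genes, since most EC subsets held under 50 UMIs of each. No paired analysis was possible because the control has 1 library, so the groups share fewer than 2 replicate numbers.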

Other observations

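At resolution 1.6 a small cluster of lamina propria CapEC separated (98, 31 and 18 cells in the control, replicate 1 and replicate 2), with 1746, 2975 and 1395 CPM of H2-K1, 4999, 2963 and 2290 of H2-D1, and 5108, 1933 and 4027 of B2m. The order of the libraries was that of PP CapEC for H2-K1 and H2-D1 but not for B2m, and Cd74, H2-Aa and H2-Ab1 had 0 UMIs in all 3 libraries.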
